A study of Mus musculus with 9 samples.

Results

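Grem1 and Fmn1 lie side by side on mouse chromosome 2, and the Hoxa13 and Hoxa11 binding sites across both genes were described by protein and stage. The members are the chromatin immunoprecipitation sequencing (ChIP-seq) peaks whose start falls between 113100000 and 113750000 on chromosome 2 of the mouse build mm9, a window of 650 kb chosen by position alone. It holds 51 of the 243649 peaks in 5 deposited peak lists. Of these, 4 come from Hoxa13 at embryonic day 11.0 (E11.0), 35 from Hoxa13 at E11.5, 8 from Hoxa13 at E12.5, 3 from Hoxa11 replicate 1 and 1 from Hoxa11 replicate 2.

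Every library came from wild-type embryos of the ICR strain. Hoxa13 was precipitated from the autopod, the future hand and foot, at E11.0 (11 pairs of autopods), from whole limb buds of one litter at E11.5, and from tissue labelled limb bud at E12.5. Each Hoxa13 stage has a single library. The Hoxa11 libraries, replicates 1 and 2, both come from E11.5 limb buds, and the labels do not say whether these came from separate litters. Both antibodies were home-made. From E11.0 to E11.5 the dissected tissue changes with the stage, and from E11.5 to E12.5 the protocol does, so stage, tissue and protocol cannot be told apart.

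Grem1 encodes Gremlin 1, a secreted antagonist of bone morphogenetic proteins. In the limb bud it relays between Shh in the posterior mesenchyme and Fgf genes in the overlying ectodermal ridge. Without Gremlin 1 this feedback loop fails and digit formation is impaired. Fmn1 encodes formin 1, which nucleates actin filaments. The mouse limb deformity mutations map to this locus, and enhancers that drive Grem1 in limb mesenchyme lie within and beside Fmn1. Hoxa13 acts in the autopod and Hoxa11 in the forearm and lower leg. The 5′ Hox proteins are known to act upstream of Grem1 in mouse limb buds.

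Among protein-coding genes of the RefSeq annotation, the order along the chromosome is Ryr3, Tmco5b, Fmn1, Grem1, Scg5 and Arhgap11a, and the long non-coding RNA genes Gm13963 and 4930533B01Rik lie inside Fmn1. That annotation is of GRCm38, another build, so only names and order were taken from it. Peaks were not placed in exons, introns or promoters. The window was defined with Grem1 near 113.59 Mb in mm9, and distances to Grem1 below refer to that single position.

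The start regions of both genes are shown because they are where transcription of the members begins. They are the 250 bases before each annotated start in RefSeq (GRCm38), read on the strand of the gene, which is the minus strand for Grem1 and the plus strand for Fmn1. Fmn1 has a pair of entries, one for an upstream and one for a downstream start.
Grem1: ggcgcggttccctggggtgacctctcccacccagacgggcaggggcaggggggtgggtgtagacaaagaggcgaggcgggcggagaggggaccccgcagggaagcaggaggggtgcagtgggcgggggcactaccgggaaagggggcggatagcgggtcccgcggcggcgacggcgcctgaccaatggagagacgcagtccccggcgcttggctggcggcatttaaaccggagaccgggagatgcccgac
Fmn1, upstream start: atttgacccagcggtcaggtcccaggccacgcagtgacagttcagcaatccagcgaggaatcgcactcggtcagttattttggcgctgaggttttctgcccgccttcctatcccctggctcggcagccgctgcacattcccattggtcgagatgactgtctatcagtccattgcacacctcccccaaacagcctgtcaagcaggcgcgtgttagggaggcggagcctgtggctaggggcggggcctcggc
Fmn1, downstream start: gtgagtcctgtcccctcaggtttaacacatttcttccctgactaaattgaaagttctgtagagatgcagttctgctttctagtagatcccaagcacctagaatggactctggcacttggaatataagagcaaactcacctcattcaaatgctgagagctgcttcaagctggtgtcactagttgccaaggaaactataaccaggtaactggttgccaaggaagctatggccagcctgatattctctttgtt
Neither TTTAT nor TTTAC, short words that posterior HOX proteins bind, was found on either strand in these 3 stretches, so no base is in capitals. Among 32841 promoter stretches of the same length in the RefSeq table, TTTAT was present in 37.3%, TTTAC in 28.3% and at least one of them in 51.2%. The words were not counted in peaks, since no mm9 sequence was used here. G and C made up 72.0% of the Grem1 stretch, 60.8% of the upstream Fmn1 stretch and 44.4% of the downstream one.

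Hoxa13 binding across the locus was about as frequent as elsewhere at E11.5, a little below at E12.5, and sparse at E11.0. Peak density per Mb was 6.15 in the E11.0 list, 53.8 in the E11.5 list and 12.3 in the E12.5 list. The genome was cut into 3953 consecutive tiles of 650 kb on chromosomes 1 to 19 and X that held at least 1 peak. At E11.0 the window held 4 peaks, against a median of 11 per tile, and 82.7% of tiles held more. At E11.5 it held 35, against a median of 34, and 46.8% held more. At E12.5 it held 8, against a median of 10, and 57.7% held more.

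**Figure D1:**
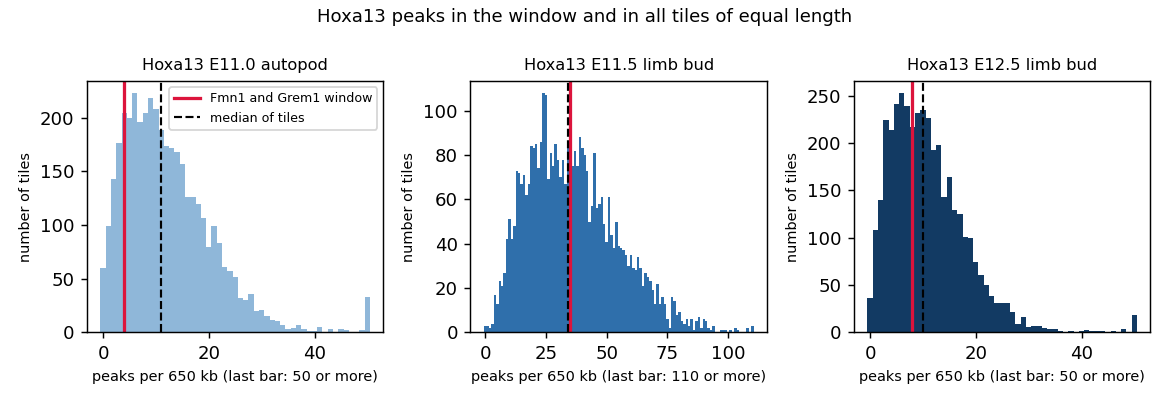
Number of Hoxa13 peaks per 650 kb tile (x axis) against the number of tiles (y axis) in the lists of E11.0, E11.5 and E12.5. The solid line marks the Fmn1 and Grem1 window, with 4, 35 and 8 peaks, and the dashed line the median of all tiles, 11, 34 and 10.

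The lists differ in length, the E11.0 list having 50890 peaks, the E11.5 list 143460 and the E12.5 list 44699, so counts between stages are not comparable as they stand. The window held 0.00786% of the E11.0 list (exact 95% interval 0.00214 to 0.0201), 0.0244% of the E11.5 list (0.0170 to 0.0339) and 0.0179% of the E12.5 list (0.00773 to 0.0353). The 3 intervals overlap one another. With every list limited to its widest 44699 peaks, the window kept 3 of its E11.0 peaks, 11 of its E11.5 peaks and 8 of its E12.5 peaks. Read depth per library is unknown, the intervals cover counting error only, and no stage has a replicate.

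Adjacent windows of the same length gave a local reference. At E11.0 the Grem1 and Fmn1 window held 4 peaks, against 13 in the window before it and 14 in the window after it. At E11.5 it held 35, against 39 and 51. At E12.5 it held 8, against 12 and 14. The count was therefore the lowest of the 3 neighbouring windows at each stage. Hoxa11 showed the opposite order, with 3 peaks in replicate 1 and 1 in replicate 2, against 0 in both adjacent windows for either replicate. Hoxa11 lists are short, at 2953 and 1647 peaks, and most tiles held none. At least 3 replicate 1 peaks were found in 6.83% of tiles, and at least 1 replicate 2 peak in 23.5%.

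**Figure D2:**
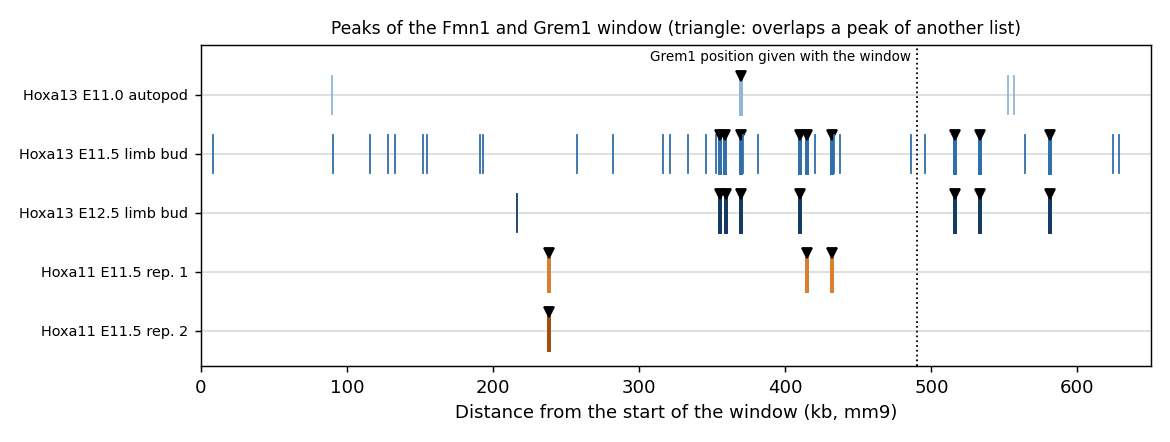
Position of each of the 51 peaks, in kb from the start of the window (x axis), in the 5 lists (rows). A thick line with a triangle marks a peak that overlaps a peak of another list, and the dotted line is the Grem1 position given with the window. One site joins all 3 Hoxa13 stages. The site of both Hoxa11 replicates overlaps no Hoxa13 peak, and the nearest, from E11.5, is 19.02 kb away.

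Peaks that shared at least 1 bp were merged, which gave 40 sites. Of these, 10 (25%) were found in at least 2 lists, against 28.1% of all 176371 sites of the series. Hoxa13 at E11.5 alone accounted for 26 sites (65%), against 54.4% of the sites of the series. E11.5 with E12.5 accounted for 6 (15%), against 9.33%, and E11.0 alone for 3 (7.5%), against 10.9%. A further 2 (5%) joined Hoxa13 at E11.5 with Hoxa11 replicate 1 and no other list, against 0.254%. Sites with any Hoxa11 and any Hoxa13 list were these same 2 (5%), against 1.43% over the series. The other combinations had 1 site each (2.5%), namely all 3 Hoxa13 stages, E12.5 alone, against 6.14%, and both Hoxa11 replicates without Hoxa13, against 0.0936%. No site was found in 4 or 5 lists. Shares that rest on 1 or 2 sites are given as a description and were not tested.

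A single site carried Hoxa13 at every stage. It lay from 113469435 to 113470011, about 120 kb before the Grem1 position. The E11.0 peak there ran from 113469580 to 113470005 (426 bp), the E11.5 peak from 113469435 to 113470011 (577 bp) and the E12.5 peak from 113469535 to 113469756 (222 bp). The E11.0 peak was the widest of the 4 E11.0 peaks in the window and wider than 93.75% of its list. At E11.5 it was second widest of 35, and at E12.5 second widest of 8. Of the 39 window sites with Hoxa13, 1 held all 3 stages (2.56%), against 7.85% over the series. The 4 E11.0 peaks limit this share, so it is no separate result from their sparsity. A second E11.5 peak, of 218 bp, began 857 bp after the end of this site and met no other list.

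Most E12.5 Hoxa13 peaks coincided with an E11.5 peak, while most E11.5 peaks met no E12.5 peak. Of 8 E12.5 peaks, 7 met an E11.5 peak (87.5%, exact 95% interval 47.35 to 99.7), against 70.7% of the whole E12.5 list. The adjacent windows gave 9 of 12 before and 11 of 14 after. Seen from E11.5, 7 of 35 peaks met E12.5 (20%, 8.44 to 36.9), against 21.7% of the whole list. Both intervals contain the value of the whole list. Only 8 E12.5 peaks in the window could be met, so the share seen from E11.5 is limited by that number. With every list limited to its widest 44699 peaks, 4 of 8 E12.5 peaks met E11.5, and the share over whole lists was not computed at that length.

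The shared E11.5 and E12.5 sites fell into a group before the Grem1 position and a group after it. Before it, the E12.5 peaks began at 113455301 (149 bp), 113459098 (229 bp), 113469535 (222 bp) and 113510386 (110 bp). After it, they began at 113616520 (206 bp), 113633321 (115 bp) and 113680941 (116 bp). The first of this second group was 26.5 kb from the Grem1 position, and the next 43.3 kb. Their E11.5 partners were 438, 344, 577 and 269 bp wide before the Grem1 position, and 222, 789 and 285 bp after it.

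All 7 of these E12.5 peaks lay wholly inside their E11.5 partner, as did 85.3% of E12.5 peaks that met E11.5 over the whole list. Their midpoints were 1 to 77.5 bp apart, with a median of 49.5 bp, against 30.5 bp over the whole list. The E12.5 peaks were the narrower, and only 2 of 8 met E11.5 under a rule that asks for overlap of at least 50% of each peak. With every peak set to 300 bp around its midpoint the number was again 7 of 8. The remaining E12.5 peak, from 113316013 to 113316165, was 22.6 kb from the nearest E11.5 peak and 126 kb from the nearest E11.0 peak.

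Few peaks were shared between E11.5 and E11.0, with 4 E11.0 peaks in the window to meet. Only 1 of 35 E11.5 peaks met an E11.0 peak (2.86%, exact 95% interval 0.0723 to 14.9), against 20.5% of the whole E11.5 list. The small number of E11.0 peaks limits this share, so it is no separate result from their sparsity. With lists of equal length it was 1 of 11 (9.09%), and the share over whole lists was not computed at that length. The windows on either side, with 13 and 14 E11.0 peaks, gave 8 of 39 (20.5%) before and 10 of 51 (19.6%) after.

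Of the 4 E11.0 peaks, 1 met E11.5 (25%, 0.631 to 80.6), against 58.1% of the whole E11.0 list, 8 of 13 in the window before and 10 of 14 in the window after. Likewise 1 of 4 met E12.5, against 30.7% of the list, while E11.0 was met by 1 of 8 E12.5 peaks (exact interval 0.316 to 52.65%), against 35.6% of the whole E12.5 list. These intervals contain the values of the whole lists, so with so few peaks a difference was not detectable. Autopods were used at E11.0 and limb buds later, and the part of this difference in tissue in these shares was not tested.

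The other 3 of the 4 E11.0 peaks (75%) met no list, against 37.9% of the whole E11.0 list. One, from 113189388 to 113189574, was 187 bp wide, the narrowest width in its list, and ended 0.999 kb before an E11.5 peak that began at 113190574. The remaining pair lay beyond the Grem1 position, from 113652410 to 113652701 (292 bp) and from 113656495 to 113656699 (205 bp). Their nearest E11.5 peak was 11.6 kb and 7.61 kb away.

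Hoxa11 marked 3 sites, all before the Grem1 position, where 31 of all 40 sites and 490 of the 650 kb also lay. Its replicated site lay from 113337981 to 113338423, where replicate 2 had a peak of 443 bp that enclosed the 262 bp peak of replicate 1. Replicate 2 met replicate 1 in this 1 peak, against 64.6% of its whole list, and 1 of 3 replicate 1 peaks met replicate 2, against 35.8%. The authors' deposited values for the replicate 2 peak were a fold enrichment of 4.35, a −log10 p of 11.46 and a −log10 q of 7.34, with the summit at 113338094. By fold enrichment it ranked 545 of 1647, and its −log10 q was close to the list median of 7.10. Set against the 1064 replicate 2 peaks that met replicate 1, its fold enrichment was above their median of 4.21, while its −log10 p and −log10 q were below their medians of 12.96 and 8.75.

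The replicated Hoxa11 site held no Hoxa13 peak at any stage. The nearest Hoxa13 peak was 131 kb away in the E11.0 list, 19.02 kb in the E11.5 list and 21.8 kb in the E12.5 list. Over the series, 165 of 1020 sites of both Hoxa11 replicates (16.2%) held no Hoxa13 peak, so most such sites differ from this one in that respect. It stood in the only 50 kb bin of the window with no E11.5 Hoxa13 peak, between E11.5 peaks that ended at 113293380 and began at 113357447.

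Hoxa11 replicate 1 had the other 2 sites, and both coincided with Hoxa13 at E11.5. The first Hoxa11 peak ran from 113514636 to 113514979 (344 bp) inside an E11.5 Hoxa13 peak from 113514588 to 113514998 (411 bp). The second ran from 113531887 to 113532113 (227 bp) inside an E11.5 peak from 113531701 to 113532247, which at 547 bp was the third widest of the 35. Midpoints of these pairs were 14.5 and 26 bp apart. Neither site met Hoxa13 at E11.0 or E12.5, and the nearest E12.5 peaks were 4.14 and 21.4 kb away.

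Thus 2 of 3 replicate 1 peaks met Hoxa13 at E11.5, against 71.0% of the whole replicate 1 list. Seen from Hoxa13, 2 of 35 E11.5 peaks met replicate 1 (5.71%, 0.700 to 19.2), against 1.46% of the whole list. Neither was seen in replicate 2, whose nearest peak was 176 kb or more away. By its title, one input library served both Hoxa13 at E11.5 and Hoxa11 replicate 1, and the part of that input in these coincident sites was not tested. The site of both Hoxa11 replicates thus had no called Hoxa13 peak, while the sites with Hoxa13 rest on 1 Hoxa11 library. Without read depth, Hoxa13 binding below the caller's threshold there cannot be told from absence.

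Along the window, sites were densest in the 100 kb that end about 40 kb before the Grem1 position. The bins of 50 kb from 113450001 and from 113500001 held 6 sites each, 12 of 40 in all (30.0%), with 12 E11.5 peaks, 4 of 8 E12.5 peaks, 1 of 4 E11.0 peaks and 2 of 3 Hoxa11 replicate 1 peaks. Next, with 4 sites each, came the bins from 113250001, 113400001 and 113650001. None of the 13 bins was empty, and each of the remaining bins held 1 to 3 sites. Neighbouring sites were 11.3 kb apart in the median. The longest empty stretch was 80.9 kb, from 113108484 to 113189388, near the start of the window, and another of 48.6 kb lay just before the Grem1 position, from 113537668 to 113586263.

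**Figure D3:**
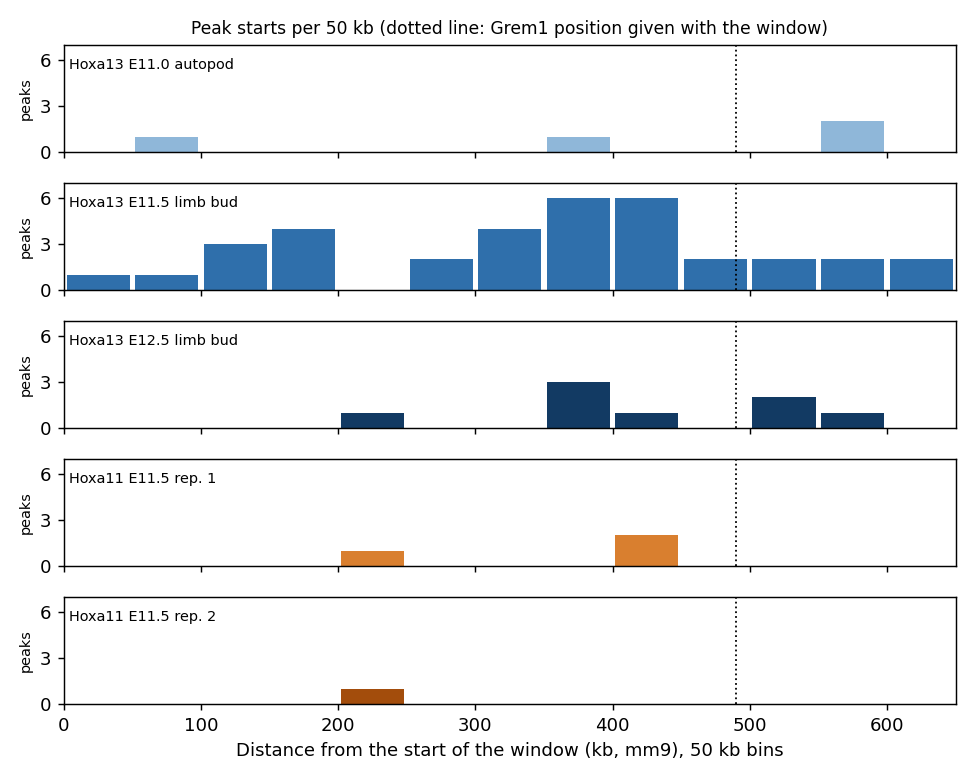
Number of peak starts (y axis) in each 50 kb bin, in kb from the start of the window (x axis), for the 5 lists. E11.5 Hoxa13 reaches 6 peaks in the bins from 350 to 450 kb, and the dotted line is the Grem1 position.

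Within 10 kb of the Grem1 position, 2 E11.5 Hoxa13 peaks were found, from 113586263 to 113586681 (419 bp, 3.32 kb away) and from 113595355 to 113595590 (236 bp, 5.35 kb away). Neither met any other list. Within 50 kb there were 4 E11.5 and 2 E12.5 peaks, and no peak of E11.0 or of either Hoxa11 replicate. Before the Grem1 position, in 490 kb, E11.5 had 28 peaks (57.1 per Mb), and after it, in 160 kb, it had 7 (43.8 per Mb). In the same stretches E12.5 had 5 and 3 peaks and E11.0 had 2 and 2. Of the Hoxa13 lists, only E11.5 was thus denser before that position. Its 7 peaks after it and the counts of the other lists are small, and the difference in density was not tested.

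Of the 35 E11.5 peaks, 26 (74.3%) met no other list, against 66.9% of the whole E11.5 list. They ran through the whole window. The first began at 113108173 and the last at 113728729. Others began at 113190574, 113216018, 113227908 and 113232857. Further on, pairs of such peaks stood 1.68 kb apart, from 113252228 and from 113254405, and 1.98 kb apart, from 113290926 and from 113293140. Single ones followed from 113357447 and from 113381826, and then a row from 113416149, 113421305, 113433686, 113445891 and 113452557 led up to the first site shared with E12.5. Within the densest bins, more unshared peaks began at 113470869, 113481065, 113520132, 113533586 and 113537437, between the shared ones. One stood just before the Grem1 position, from 113586263, and beyond that position they began at 113595355, 113664307, 113724384 and 113728729.

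Median peak widths in the window lay close to those of the lists. The median was 248.5 bp at E11.0, against 245 bp over the list, 280 bp at E11.5, against 286 bp, and 151 bp at E12.5, against 154 bp. Wider E11.5 peaks were more often the shared ones. The 9 E11.5 peaks that met any other list ranged from 222 to 789 bp with a median of 411 bp, and the 26 that met none ranged from 203 to 498 bp with a median of 260.5 bp. Over the whole E11.5 list the medians were 341 and 266 bp. Wider intervals are easier to overlap, so this difference is given as a description.

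The 3 widest window peaks of each Hoxa13 list are given next, which at E11.0 are 3 of only 4 peaks. At E11.5 they were the 789 bp peak from 113633056 to 113633844, wider than 99.2% of its list and shared with E12.5, then the 577 bp site of all stages and the 547 bp site with Hoxa11. At E12.5 they were those from 113459098 to 113459326 (229 bp), from 113469535 to 113469756 (222 bp) and from 113616520 to 113616725 (206 bp), and all met E11.5. At E11.0 they were the peak of the site of all stages (426 bp) and those of 292 and 205 bp beyond the Grem1 position. The widest unshared E11.5 peak, from 113252228 to 113252725, was 498 bp wide.

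**Figure D4:**
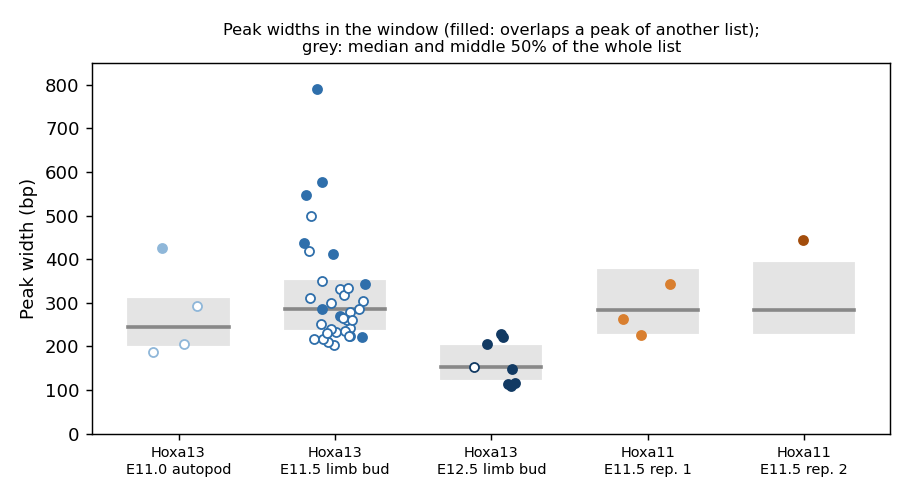
Width in bp (y axis) of every peak in the window, by list (x axis). Filled points overlap a peak of another list, open points do not, and grey boxes give the middle 50% and the line the median of the whole list. The E11.5 peak of 789 bp is the widest, and the 4 widest E11.5 peaks include 3 shared ones.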

How the data were processed

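Peaks were taken from 5 deposited lists, 1 per ChIP library. The 4 input libraries were not analysed here. The submitters' processing notes name MACS2 2.1.0, Bowtie2 2.2.2, CASAVA 1.4 and build mm9, with roles, thresholds and use of input not given in the sources used here. Of the lists, 4 hold chromosome, start and end alone. The list of Hoxa11 replicate 2 also has the authors' deposited score, fold enrichment (a ratio over the background of the caller), −log10 p, −log10 q and summit. The deposited score equals the whole part of 10 times −log10 q in 100% of peaks.

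Overlaps of at least 1 bp, merged sites, 50 kb bins and 650 kb tiles were computed with Python 3.11.15, NumPy 2.4.6 and SciPy 1.17.1, and plotted with matplotlib 3.10.9. The overlap code was tested on simulated intervals. Intervals are exact Clopper-Pearson at 95% and treat peaks as independent. Peaks are not replicates and Hoxa13 has 1 library per stage, so no p-value is given. Positions are 1-based. The design named every site in at least 4 lists, of which there were none, every site with Hoxa11, the 3 widest peaks per Hoxa13 list and the 3 fullest bins, where a tie added others. The remaining peaks and the promoter words were chosen after values were seen, and members and lists were chosen with earlier results of these data known. Peaks were not annotated or searched for motifs, as no mm9 genome was used here.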

Additional observations from a re-analysis of the deposited data

How the results depend on the processing

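Of 74 recomputed values for 22 results, 64 were labelled the same and 10 moved. The same meant within 1.5 times a count or within the exact interval of a share. For median widths it meant within the middle 50% of the widths in the window. Some values could not move, since leaving out a Hoxa11 list cannot change sites defined by Hoxa13 alone. Intervals of few peaks are also wide, such as 0.631 to 80.6% for 1 of 4 E11.0 peaks. The tally is therefore no measure of robustness. Keeping the wider 50% of each list left 2 peaks at E11.0, 16 at E11.5, 3 at E12.5 and 1 in Hoxa11 replicate 1. Limiting Hoxa13 lists to the widest 44699 peaks left 11 E11.5 peaks and 18 sites, by construction. There 4 of 8 E12.5 peaks met E11.5 and 1 of 11 E11.5 peaks met E11.0. With overlap of at least 50% of each peak required, 25% of E12.5 peaks met E11.5, and 5.71% of E11.5 peaks met E12.5. The share of E11.5 peaks that met E11.0 was 2.86% under that rule and with peaks set to 300 bp. Whole-list shares were not recomputed under any of these settings. Leaving out one Hoxa11 replicate gave 1 to 3 Hoxa11 sites and 0 to 2 Hoxa11 sites with Hoxa13, and both such sites are lost without replicate 1. The sites found in at least 2 lists then numbered 7 to 9. The site of all 3 Hoxa13 stages was found with peaks up to 200 bp apart merged, with peaks set to 300 bp and with the lists limited to equal length. Motif counts and annotation of peaks were not run. Without read depth, an absent peak may be a peak below the caller's threshold.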
